A study of Mus musculus with 10 samples.

Results

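The genes described here are 36 markers of Kupffer cells and other leukocytes, measured in cultures labelled as primary mouse hepatocytes. They were chosen by symbol, each through the probe set that carries that 1 symbol alone in the array annotation. Of the 36, 33 had such a probe set, 1 each, and Cd163, H2-Aa and Slc11a1 had none. The table held 16401 genes in all. After the 30% of genes with the lowest mean were removed, 11481 genes were tested, 24 of them among these markers.

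Hepatocytes came from male C57BL6/J mice aged 10 weeks and were transduced with adenovirus carrying a hairpin, at 2 to 4 plaque-forming units per cell, for 72 h. The hairpins were shWDR5, against Wdr5, shKAT2B, against Kat2b, or the non-specific shNS, so control cultures carried virus and hairpin as well. Cultures then received 100 nM glucagon or PBS for 90 min, and RNA of 3 dishes was pooled for each of 10 libraries, which were read on 1-colour Affymetrix arrays. Libraries carry the letter A or B. The shWDR5 glucagon, shKAT2B glucagon, shNS glucagon and shNS PBS groups hold 1 library of each letter, whereas shWDR5 PBS and shKAT2B PBS hold a lone library labelled A. Nothing in the labels says whether the letters stand for separate animals, so p-values measure only the spread between these libraries, and the number of arrays limits their precision.

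Kupffer cells are the resident macrophages of the liver sinusoids, where they take up particles, aged erythrocytes and microbes from portal blood. Macrophages depend on signalling through the receptor encoded by Csf1r and on the transcription factor PU.1, encoded by Spi1. They are the usual source of the complement chains C1qa, C1qb and C1qc. Hepatocyte preparations can carry some of these cells along with sinusoidal endothelial and stellate cells. In such bulk RNA, fewer cells of a type and less RNA per cell cannot be told apart.

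Of the 6 markers that differed most between the letters, the promoters of Fcer1g, C1qb, C1qc, Vsig4 and Cd5l are shown, and Adgre1 is the other. They are shown because PU.1, the lineage factor among the markers, binds sites with the core GAGGAA. The windows run from 250 bases before to 50 bases after the annotated start (RefSeq, GRCm38.p6), and capitals mark each GAGGAA, or its reverse complement TTCCTC, with no overlaps between matches. The Fcer1g window is chr1:171234300-171234599, that of C1qb chr4:136886151-136886450, that of C1qc chr4:136892865-136893164 and that of Vsig4 chrX:96293389-96293688, all on the minus strand, and that of Cd5l chr3:87357631-87357930 on the plus strand.
Fcer1g: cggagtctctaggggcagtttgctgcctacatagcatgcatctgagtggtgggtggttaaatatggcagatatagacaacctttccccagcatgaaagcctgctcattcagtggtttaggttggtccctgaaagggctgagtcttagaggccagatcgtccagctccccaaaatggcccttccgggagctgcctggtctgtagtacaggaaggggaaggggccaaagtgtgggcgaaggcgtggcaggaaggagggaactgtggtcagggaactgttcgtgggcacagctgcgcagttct
C1qb: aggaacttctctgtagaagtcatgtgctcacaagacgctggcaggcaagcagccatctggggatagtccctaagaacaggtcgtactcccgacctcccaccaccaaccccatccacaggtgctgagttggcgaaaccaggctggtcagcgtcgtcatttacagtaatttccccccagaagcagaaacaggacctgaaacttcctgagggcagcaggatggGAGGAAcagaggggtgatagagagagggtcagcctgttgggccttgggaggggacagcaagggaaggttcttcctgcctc
C1qc: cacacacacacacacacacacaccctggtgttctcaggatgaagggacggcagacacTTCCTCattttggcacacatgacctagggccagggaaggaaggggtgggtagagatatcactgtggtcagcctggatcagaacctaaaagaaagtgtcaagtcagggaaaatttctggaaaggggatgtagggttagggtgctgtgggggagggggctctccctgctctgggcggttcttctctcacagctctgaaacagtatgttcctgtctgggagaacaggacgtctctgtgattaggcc
Vsig4: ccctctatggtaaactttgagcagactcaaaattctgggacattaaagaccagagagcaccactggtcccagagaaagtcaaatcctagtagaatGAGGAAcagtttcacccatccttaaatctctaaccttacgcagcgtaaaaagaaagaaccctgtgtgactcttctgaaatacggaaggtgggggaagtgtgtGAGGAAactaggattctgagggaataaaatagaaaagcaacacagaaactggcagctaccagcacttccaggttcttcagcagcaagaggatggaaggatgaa
Cd5l: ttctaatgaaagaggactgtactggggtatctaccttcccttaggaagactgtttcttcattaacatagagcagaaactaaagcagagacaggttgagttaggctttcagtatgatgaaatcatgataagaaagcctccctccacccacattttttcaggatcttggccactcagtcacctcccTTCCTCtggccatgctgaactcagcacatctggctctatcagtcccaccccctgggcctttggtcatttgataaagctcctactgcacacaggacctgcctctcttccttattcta

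Vsig4 held 2 matches, which began 155 and 53 bases before the start. C1qb held 1 match 30 bases before the start, C1qc 1 match 193 bases before it and Cd5l 1 match 66 bases before it, whereas these letters did not occur in the Fcer1g window. Among markers with an entry, 16 of 26 held the core in at least 1 window, and 10 of 16 tested markers did. For comparison, 31.3% of 27025 genes held it in at least 1 window, as did 28.3% of 32851 windows of 300 bases.

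The hairpins were checked first. Kat2b lay between 6.59 and 6.93 on the log2 scale in the 3 shKAT2B libraries, against 9.40 to 9.59 in the other 7. Wdr5 lay between 8.19 and 8.40 in the 3 shWDR5 libraries, against 9.98 to 10.07 in the other 7. Levels here and below are log2(intensity + 1). Hepatocyte identity was visible in Alb, which encodes albumin and ranged from 13.37 to 13.84, and 14 of 16 measured hepatocyte markers passed the filter. Asgr1 and Cyp2e1 did not.

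Libraries fell into sets that follow the letters only in part. In the additive model of hairpin and treatment, the first component of the residuals of 11457 tested genes outside the markers took 77.9% of the residual sum of squares. It separated the A libraries of shWDR5 glucagon, shKAT2B glucagon, shNS glucagon and shNS PBS from the other 6, so that the lone shWDR5 PBS A and shKAT2B PBS A libraries lay with the B libraries. For a distance to the lone libraries, each glucagon library was corrected by subtracting the shNS glucagon minus PBS difference of its letter. The root mean square difference of shWDR5 PBS A over those 11457 genes was 0.17 from the corrected shWDR5 glucagon B. It was 0.30 from the corrected shWDR5 glucagon A. The same distances for shKAT2B PBS A were 0.15 to the corrected shKAT2B glucagon B and 0.33 to the corrected shKAT2B glucagon A. Comparisons that use the lone libraries are therefore given in 3 further ways. The letter was used as a replicate block, or the library set replaced the letter as a term. Lastly, the fit was limited to the 8 libraries with a partner, with the letter as a block. In those 8 libraries, hairpins were compared under glucagon alone, and glucagon was compared with PBS in shNS alone. The library set was drawn from residuals of these same 10 libraries. Its term removes residual spread by construction, so p-values of that fit can be too small.

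The markers were higher in the B than in the A libraries. In a limma model of group and letter over the 8 paired libraries, 23 of 24 tested markers were called higher and 0 lower, with a call at a Benjamini-Hochberg adjusted p under 0.05. Of all tested genes, 15.7% were called higher in that comparison and 35.5% lower. The median difference was 0.52 on the log2 scale over the markers and -0.07 over all tested genes. For 22 of 24 markers, B lay above A in all 4 groups, which held for 18.9% of tested genes, and the exceptions were H2-Eb1 and Fcgr3. With no filter on low values, 28 of 33 markers were called higher, and the share of all genes called in that fit was not counted.

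**Figure D1:**
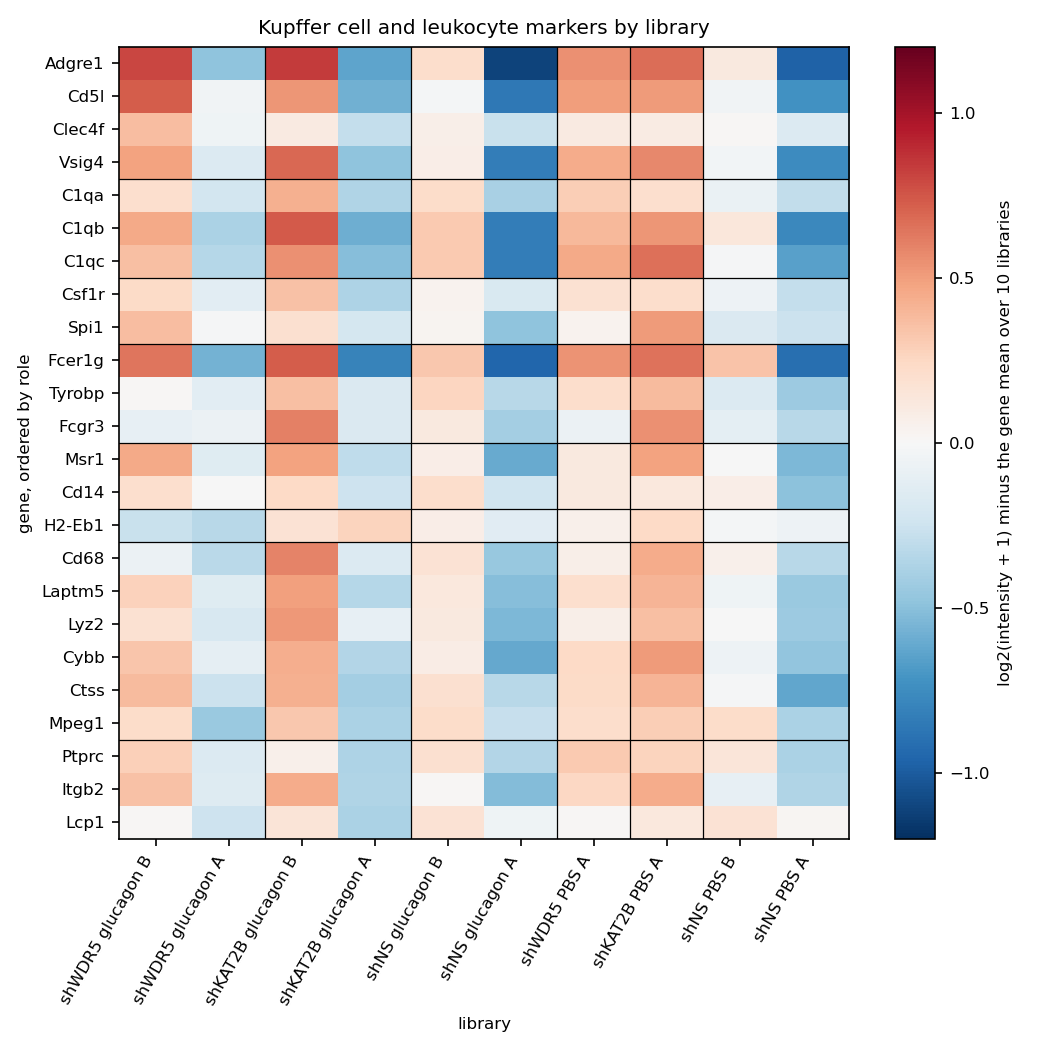
Log2 level of 24 tested markers (rows, ordered by role, horizontal lines between roles) in 10 libraries (columns), each row as the difference from its mean over the libraries. Red is above and blue below that mean. The A libraries of the 4 paired groups are mostly blue, the glucagon B libraries and both lone PBS libraries mostly red, and shNS PBS B pale, with a median of -0.01 over the markers.

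Among the surface and secreted Kupffer cell markers, Adgre1, Cd5l, Clec4f and Vsig4 were tested and all were called higher in B. Values within a letter are given in the order shWDR5 glucagon, shKAT2B glucagon, shNS glucagon and shNS PBS. Adgre1, which encodes the macrophage surface protein F4/80, was at 8.93, 8.97, 8.34 and 8.24 in the B libraries, against 7.65, 7.50, 7.02 and 7.16 in the A libraries. It was at 8.68 in shWDR5 PBS A and 8.80 in shKAT2B PBS A. The letters did not overlap, and both lone PBS libraries lay above every A library with a partner. The difference of Adgre1 between the letters was 1.29 (SE 0.07, a 2.45-fold higher level in B, limma adjusted p = 7.52e-07). Vsig4, a complement receptor of resident macrophages, was at 11.06, 11.27, 10.66 and 10.54 in B, against 10.41, 10.09, 9.75 and 9.82 in A, with 11.02 in shWDR5 PBS A and 11.15 in shKAT2B PBS A. Cd5l, which encodes a secreted macrophage protein, was at 9.86, 9.67, 9.11 and 9.09 in B, against 9.09, 8.56, 8.28 and 8.41 in A, with 9.64 in shWDR5 PBS A and 9.65 in shKAT2B PBS A. Vsig4 thus separated the letters without overlap, while the highest A value of Cd5l reached the lowest B value. Their differences were 0.86 (SE 0.08, adjusted p = 8.09e-06) for Vsig4 and 0.85 (SE 0.07, adjusted p = 7.13e-06) for Cd5l.

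Clec4f, a lectin restricted to Kupffer cells in mice, was at 7.84, 7.57, 7.54 and 7.48 in B, against 7.41, 7.18, 7.20 and 7.30 in A, with 7.57 in shWDR5 PBS A and 7.56 in shKAT2B PBS A. The B libraries all lay above the A libraries, with a difference of 0.33 (SE 0.07, adjusted p = 0.00219). Marco, a scavenger receptor, and Timd4, a receptor for apoptotic cells found on embryonically derived Kupffer cells, did not pass the filter and ranged from 6.88 to 7.19 and from 6.35 to 7.06.

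All 3 C1q chains, which form the recognition molecule of the classical complement pathway, were called higher in B. C1qb was at 10.51, 10.79, 10.37 and 10.19 in B, against 9.67, 9.46, 9.22 and 9.28 in A, with 10.44 in shWDR5 PBS A and 10.58 in shKAT2B PBS A. C1qc was at 9.80, 9.99, 9.75 and 9.43 in B, against 9.10, 8.93, 8.61 and 8.79 in A, with 9.90 in shWDR5 PBS A and 10.10 in shKAT2B PBS A. Neither chain overlapped between the letters. C1qa was at 8.75, 8.98, 8.77 and 8.47 in B, against 8.33, 8.19, 8.16 and 8.25 in A, with 8.85 in shWDR5 PBS A and 8.75 in shKAT2B PBS A. The chains differed in size of change: 1.06 for C1qb (SE 0.07, adjusted p = 2.62e-06), 0.88 for C1qc (SE 0.08, adjusted p = 1.26e-05) and 0.51 for C1qa (SE 0.08, adjusted p = 0.000531).

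Both the growth factor receptor and the lineage factor were called higher in B. Csf1r was at 8.76, 8.89, 8.58 and 8.47 in B, against 8.41, 8.16, 8.35 and 8.25 in A, with 8.72 in shWDR5 PBS A and 8.74 in shKAT2B PBS A. Spi1 was at 8.47, 8.29, 8.14 and 7.94 in B, against 8.10, 7.90, 7.63 and 7.85 in A, with 8.15 in shWDR5 PBS A and 8.61 in shKAT2B PBS A. Csf1r separated the letters and Spi1 did not, since shWDR5 glucagon A lay above shNS PBS B. The differences were 0.38 for Csf1r (SE 0.08) and 0.34 for Spi1 (SE 0.08), each with an adjusted p = 0.00288.

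Fcer1g, the signalling chain shared by Fc receptors, had the largest difference between the letters among the tested markers. It was at 10.69, 10.77, 10.37 and 10.39 in B, against 9.48, 9.24, 9.09 and 9.14 in A, with 10.59 in shWDR5 PBS A and 10.70 in shKAT2B PBS A. The difference was 1.32 (SE 0.06, 2.49-fold, adjusted p = 3.56e-07), and its promoter window above held no GAGGAA core. Tyrobp, which encodes the adaptor DAP12 of myeloid receptors, was at 8.80, 9.15, 9.04 and 8.62 in B, against 8.66, 8.61, 8.45 and 8.35 in A, with 9.003 in shWDR5 PBS A and 9.17 in shKAT2B PBS A. Fcgr3, a low-affinity receptor for IgG, was at 7.56, 8.26, 7.78 and 7.54 in B, against 7.59, 7.49, 7.25 and 7.33 in A, with 7.59 in shWDR5 PBS A and 8.20 in shKAT2B PBS A. Both overlapped between the letters. Tyrobp was higher in B by 0.38 (SE 0.08, adjusted p = 0.00185). Fcgr3 was not higher in B in shWDR5 glucagon. The Fcgr3 difference of 0.37 (SE 0.11, adjusted p = 0.0155) was not called without the shNS glucagon libraries (adjusted p = 0.0812 without either of them) or without the shKAT2B glucagon libraries (adjusted p = 0.0579 without either). Fcgr1, the high-affinity receptor for IgG, stayed below the filter at 6.61 to 7.11.

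The scavenger receptor Msr1 was at 9.87, 9.90, 9.50 and 9.41 in B, against 9.27, 9.11, 8.81 and 8.88 in A, with 9.54 in shWDR5 PBS A and 9.90 in shKAT2B PBS A. Its letters did not overlap, at a difference of 0.65 (SE 0.06, adjusted p = 9.83e-06). Cd14, a co-receptor for lipopolysaccharide, ranged from 10.13 to 10.86 and was higher in B by 0.43 (SE 0.06, adjusted p = 0.000171).

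Genes of antigen presentation through MHC class II were low or did not follow the letters. H2-Eb1, a class II beta chain, was at 7.24, 7.69, 7.59 and 7.49 in B, against 7.18, 7.78, 7.38 and 7.45 in A, with 7.57 in shWDR5 PBS A and 7.75 in shKAT2B PBS A. Its letters overlapped throughout, with a difference of 0.05 (SE 0.07, adjusted p = 0.542). Cd74, the invariant chain, was below the filter at 6.73, 6.46, 6.90 and 6.77 in B, against 6.05, 5.90, 5.90 and 5.63 in A, with 6.54 in shWDR5 PBS A and 6.37 in shKAT2B PBS A. Cd74 nevertheless separated the letters, by 0.84 (SE 0.10, adjusted p = 5.31e-05) in the fit with no filter. H2-Ab1 was below the filter as well, at 6.74 to 7.12, and was not called in that fit (0.09, SE 0.08, adjusted p = 0.444).

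All 6 tested genes of lysosome, phagosome and microbial killing were called higher in B. Cd68, a lysosomal membrane glycoprotein of macrophages, was at 10.87, 11.53, 11.11 and 11.001 in B, against 10.61, 10.77, 10.48 and 10.60 in A, with 11.01 in shWDR5 PBS A and 11.38 in shKAT2B PBS A. Lyz2, lysozyme, was at 10.84, 11.18, 10.77 and 10.65 in B, against 10.46, 10.56, 10.12 and 10.22 in A, with 10.73 in shWDR5 PBS A and 11.02 in shKAT2B PBS A. Both separated the letters without overlap, by 0.51 for Cd68 (SE 0.07, adjusted p = 0.000166) and 0.52 for Lyz2 (SE 0.06, adjusted p = 3.04e-05). Ctss, the protease cathepsin S, was at 8.81, 8.86, 8.62 and 8.42 in B, against 8.18, 8.03, 8.11 and 7.81 in A, with 8.66 in shWDR5 PBS A and 8.84 in shKAT2B PBS A. Cybb, the catalytic subunit of the phagocyte NADPH oxidase, was at 9.31, 9.41, 9.06 and 8.91 in B, against 8.87, 8.62, 8.36 and 8.50 in A, with 9.21 in shWDR5 PBS A and 9.49 in shKAT2B PBS A. Neither gene overlapped between the letters, and the differences were 0.65 for Ctss (SE 0.07, adjusted p = 2.28e-05) and 0.58 for Cybb (SE 0.07, adjusted p = 8.17e-05). Laptm5, a lysosomal membrane protein of haematopoietic cells, was at 9.90, 10.12, 9.75 and 9.57 in B, against 9.48, 9.28, 9.11 and 9.18 in A, with 9.83 in shWDR5 PBS A and 10.03 in shKAT2B PBS A. Mpeg1, the pore-forming perforin-2, was at 10.18, 10.28, 10.18 and 10.18 in B, against 9.51, 9.58, 9.68 and 9.58 in A, with 10.17 in shWDR5 PBS A and 10.26 in shKAT2B PBS A. The 4 B values of Mpeg1 lay closer together than the gap to any A value. The differences were 0.57 for Laptm5 (SE 0.07, adjusted p = 0.0001) and 0.62 for Mpeg1 (SE 0.05, adjusted p = 7.68e-06).

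Among genes shared by many leukocytes, Ptprc, Itgb2 and Lcp1 passed the filter and were called higher in B. Ptprc, which encodes CD45, was at 7.71, 7.48, 7.62 and 7.57 in B, against 7.26, 7.05, 7.07 and 7.04 in A, with 7.74 in shWDR5 PBS A and 7.69 in shKAT2B PBS A. Itgb2, the beta chain of leukocyte integrins, was at 8.08, 8.16, 7.74 and 7.63 in B, against 7.57, 7.36, 7.20 and 7.36 in A, with 7.97 in shWDR5 PBS A and 8.16 in shKAT2B PBS A. In both genes every B library lay above every A library. The differences were 0.49 for Ptprc (SE 0.07, adjusted p = 0.000138) and 0.53 for Itgb2 (SE 0.08, adjusted p = 0.000395). Lcp1, an actin-bundling protein of leukocytes, was at 11.73, 11.87, 11.89 and 11.89 in B, against 11.47, 11.34, 11.66 and 11.74 in A, with 11.73 in shWDR5 PBS A and 11.84 in shKAT2B PBS A. Its difference of 0.29 (SE 0.06, adjusted p = 0.00129) was the smallest among the called markers. Itgam, Aif1, Coro1a and Ms4a7 did not pass the filter, and their highest value was 7.21.

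**Figure D2:**
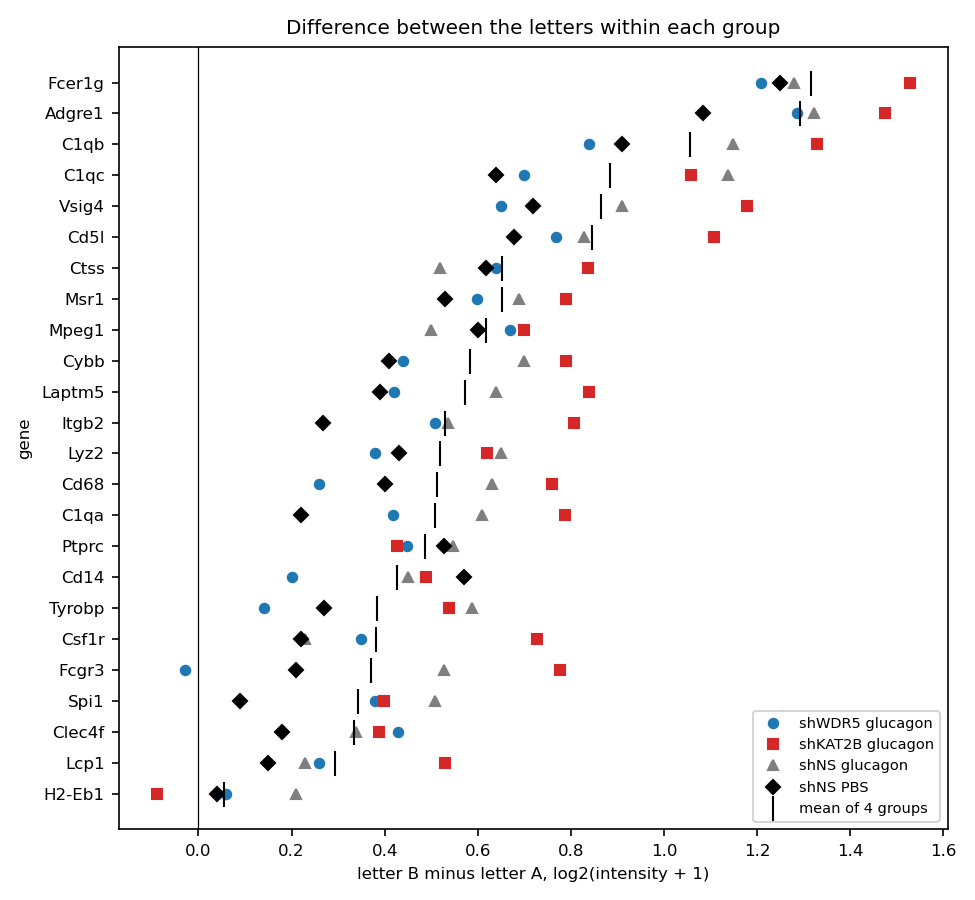
Difference between letter B and letter A on the log2 scale (horizontal axis) for 24 tested markers (rows, ordered by the mean), with a symbol for each of the 4 groups that hold both letters and a bar at their mean. Fcer1g and Adgre1 lie between 1.08 and 1.53 in every group, while H2-Eb1 lies between -0.09 and 0.21.

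The lone PBS libraries, although labelled A, lay nearer to B over most tested genes, the markers included. Of 24 tested markers, 20 were nearer to shWDR5 glucagon B than to shWDR5 glucagon A in shWDR5 PBS A, against 67.6% of all tested genes. In shKAT2B PBS A, 23 of 24 were nearer to shKAT2B glucagon B than to shKAT2B glucagon A, against 75.3% of tested genes. The summed intensity of the 33 measured markers was 21274 to 27736 in the B libraries and 15046 to 17412 in the paired A libraries, with 23541 in shWDR5 PBS A and 26432 in shKAT2B PBS A.

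Other cell types moved along the same split. Endothelial markers were called higher in B for 13 of 18 tested genes and lower for 0, with a median of 0.43, with the smallest p at Cdh5, VE-cadherin, which differed by 0.76 (SE 0.06, adjusted p = 3.83e-06). Stellate cell and fibroblast markers were called lower for 7 of 11 and higher for 0, with a median of -0.37, with the smallest p at the smooth muscle actin gene Acta2, which differed by -0.57 (SE 0.04, adjusted p = 2.69e-06). All 3 tested cholangiocyte markers were called lower, and of 14 hepatocyte markers 5 were called higher and 2 lower. For each of these lists, the shares among all tested genes were 15.7% called higher and 35.5% called lower. The summed endothelial intensity was 7606 to 10438 in B and 6145 to 6936 in the paired A libraries, and that of stellate cell and fibroblast markers 7552 to 7964 in B and 10143 to 10387 in A. None of 8 measured T, B and NK cell markers, such as Cd3e and Cd79b, passed the filter, nor did any of 6 neutrophil markers, and their highest values were 6.94 and 6.78. The part of endothelial and stellate cells in the marker differences was not tested.

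A further list of myeloid and leukocyte genes outside the 36 was counted as well. It was chosen with earlier results of these data known, and its Mrc1 is also among the endothelial markers. Of 58 listed, 53 were measured and 34 tested, and 24 of the 34 were called higher in B and 0 lower, with a median of 0.28. The shares among all tested genes were 15.7% higher and 35.5% lower. Ly86, which encodes the protein MD-1, was higher in B by 0.88 (SE 0.07, adjusted p = 5.59e-06), and the leukocyte tetraspanin Cd53 by 0.66 (SE 0.07, adjusted p = 3.81e-05). The phagocyte GTPase Rac2 was higher in B by 0.56 (SE 0.07, adjusted p = 6.77e-05).

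**Figure D3:**
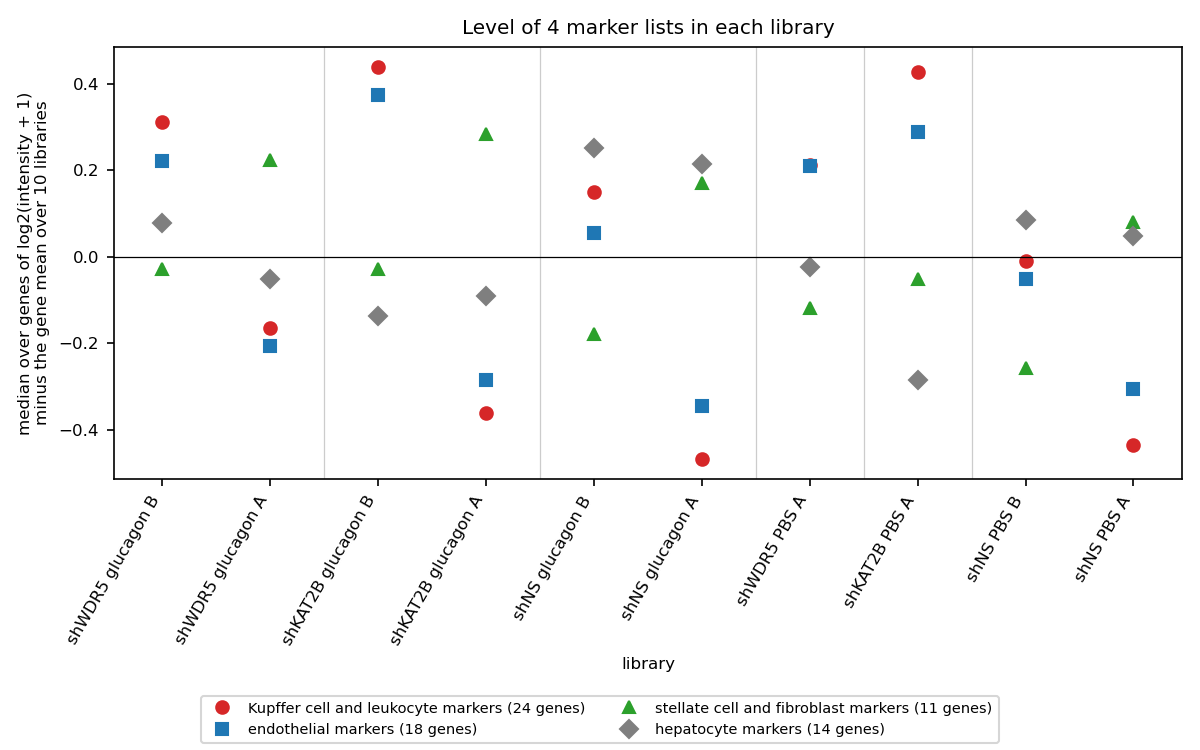
Median over the tested genes of 4 marker lists in each of 10 libraries, as log2 level minus the mean of each gene over the libraries (vertical axis). Kupffer cell and leukocyte markers lie between -0.01 and 0.44 in the B and lone PBS libraries and between -0.47 and -0.16 in the paired A libraries, endothelial markers follow them, and stellate cell and fibroblast markers run the other way.

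The next question was whether depletion of WDR5, a subunit of histone H3 lysine 4 methyltransferase complexes, went with the marker levels. Without a block, limma called 0 of 24 markers higher or lower in shWDR5 than in shNS over 10 libraries, and 1 marker had an unadjusted p under 0.05. Of all tested genes, 4.69% were called higher and 6.17% lower. The median difference was 0.30 over the markers, 22 of 24 were above 0, and the median over all tested genes was -0.01. With 1 library left out, the marker median ran from 0.19 (without shNS PBS A) to 0.47 (without shNS glucagon B), and it was 0.20 without shWDR5 glucagon B. No marker had every shWDR5 library above every shNS library, which 11.8% of tested genes had.

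Set within a letter, a group of markers stood higher in shWDR5. Under glucagon, 16 of 24 markers were above shNS in both letters, against 35.1% of tested genes, and 2, H2-Eb1 and Lcp1, were below in both, against 34.9%. Cd5l stood 0.75 above shNS in letter B and 0.81 above it in letter A, and Adgre1 0.59 and 0.63 above it. The median over the markers was 0.14 in B and 0.34 in A, and over all tested genes -0.02 in B and 0.02 in A. The lone shWDR5 PBS A library lay above both shNS PBS libraries for 22 of 24 markers, against 30.4% of tested genes. With the library set as a term, 10 markers were called higher and 1, Lcp1, lower, where 18.8% of all tested genes were called higher and 18.0% lower. With the letter as a replicate block, 13 were called higher and 0 lower, against 26.7% of tested genes called either way, and in the 8 libraries with a partner 7 were, against 11.3%. Adgre1, Cd5l, Cybb, Fcer1g, Msr1 and Vsig4 were called in all 3 of these fits.

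Cd5l showed the largest difference in each of those fits except the replicate block, where Adgre1 was higher. In the 8 libraries with a partner, under glucagon alone, Cd5l was higher in shWDR5 by 0.78 (SE 0.10, limma adjusted p = 0.00034). Over both treatments without a block, Cd5l was higher by 0.84 (SE 0.33, limma adjusted p = 0.142). Adgre1 was higher by 0.61 (SE 0.10, adjusted p = 0.00167) in those 8 libraries and by 0.78 (SE 0.48, adjusted p = 0.361) without a block. Vsig4 was higher by 0.53 (SE 0.11, adjusted p = 0.00448) in those 8 libraries and by 0.67 (SE 0.34, adjusted p = 0.25) without a block. The standard errors were smaller where the letter or the set was a term. The set was itself drawn from the residuals of these libraries. The C1q chains were not called in the 8 libraries with a partner, where C1qb differed by 0.30 (SE 0.11, adjusted p = 0.0654). Endothelial markers were called higher for 0 of 18 without a block, 6 with the replicate block, 5 with the set as a term and 2 in the 8 libraries with a partner. Hepatocyte markers were called lower for 3 of 14 without a block, 5 with the replicate block and 7 in each of the other fits, with 1 called higher in each fit. Cholangiocyte markers were called lower for 2 of 3 in every fit. Of all tested genes, 4.69% were called higher without a block, 18.8% with the set and 11.3% in the 8 libraries. With the replicate block, 26.7% were called either way. Lower calls made up 6.17% without a block and 18.0% with the set, and were not counted separately in the other fits. The part of the endothelial, hepatocyte and cholangiocyte lists in the marker differences was not tested.

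Depletion of KAT2B, a histone acetyltransferase also known as PCAF, was compared with the same shNS libraries. Without a block, limma called 0 of 24 markers higher or lower in shKAT2B, and 3 had an unadjusted p under 0.05, whereas 6.65% of all tested genes were called higher and 8.95% lower. The median over the markers was 0.43, 23 of 24 were above 0, and the median over all tested genes was 0.01. With 1 library left out, the marker median ran from 0.28 (without shKAT2B glucagon B) to 0.66 (without shKAT2B glucagon A). Without shNS glucagon B, 2 markers were called higher (Tyrobp and H2-Eb1), and without shKAT2B glucagon A, 6 were (Vsig4, Cd68, Laptm5, Itgb2, Cybb and Fcgr3). The share of all tested genes called in these fits was not counted, so the counts have no baseline. H2-Eb1 was the single marker with every shKAT2B library above every shNS library, a pattern that 13.2% of tested genes had.

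Under glucagon, 17 of 24 markers were above shNS in both letters, against 41.3% of tested genes, and 2, Ptprc and Lcp1, were below in both, against 34.0%. The median over the markers was 0.33 in B and 0.20 in A. Lyz2 stood 0.41 above shNS in letter B and 0.44 above it in letter A, and Vsig4 0.61 and 0.34 above it. The lone shKAT2B PBS A library lay above both shNS PBS libraries for 23 of 24 markers, with Lcp1 as the exception, against 32.0% of tested genes. With the library set as a term, 16 markers were called higher and 1, Lcp1, lower, where 21.5% of tested genes were called higher and 20.1% lower. With the letter as a replicate block, 14 were called higher, against 12.6% of tested genes, and in the 8 libraries with a partner 9 were, against 13.5%. Adgre1, C1qb, Cd5l, Cd68, Cybb, Fcer1g, Lyz2, Msr1 and Vsig4 were called in all 3.

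In the 8 libraries with a partner, under glucagon alone, Lyz2 was higher in shKAT2B by 0.43 (SE 0.08, limma adjusted p = 0.00227). Over both treatments without a block, Lyz2 was higher by 0.49 (SE 0.20, limma adjusted p = 0.142). Adgre1 was higher by 0.55 (SE 0.10, adjusted p = 0.00237) in those 8 libraries, against 0.78 (SE 0.48, adjusted p = 0.333) without a block. Cd68 was higher by 0.36 (SE 0.10, adjusted p = 0.0223), against 0.45 (SE 0.21, adjusted p = 0.189) without a block. With the replicate block over 10 libraries, the differences were 0.59 for Lyz2, 1.02 for Adgre1 and 0.55 for Cd68, each larger than without a block. Csf1r, Cd14, Mpeg1, Ptprc, C1qa, Clec4f and Ctss were called in none of the 4 fits. Endothelial markers were called higher for 2 of 18 without a block (Flt1 and Eng, a vascular growth factor receptor and endoglin), 10 with the replicate block, 11 with the set as a term and 5 in the 8 libraries. Hepatocyte markers were called lower for 7 of 14 without a block, among them Tdo2, tryptophan dioxygenase, at -1.40 (SE 0.09, adjusted p = 7.26e-05). They were called lower for 10 with the replicate block, 14 with the set as a term and 11 in the 8 libraries. Of tested genes, 6.65% were called higher without a block, 12.6% with the replicate block, 21.5% with the set and 13.5% in the 8 libraries. Lower calls made up 8.95% without a block and 20.1% with the set, and were not counted in the other fits. The part of the endothelial or the hepatocyte list in the marker differences was not tested.

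**Figure D4:**
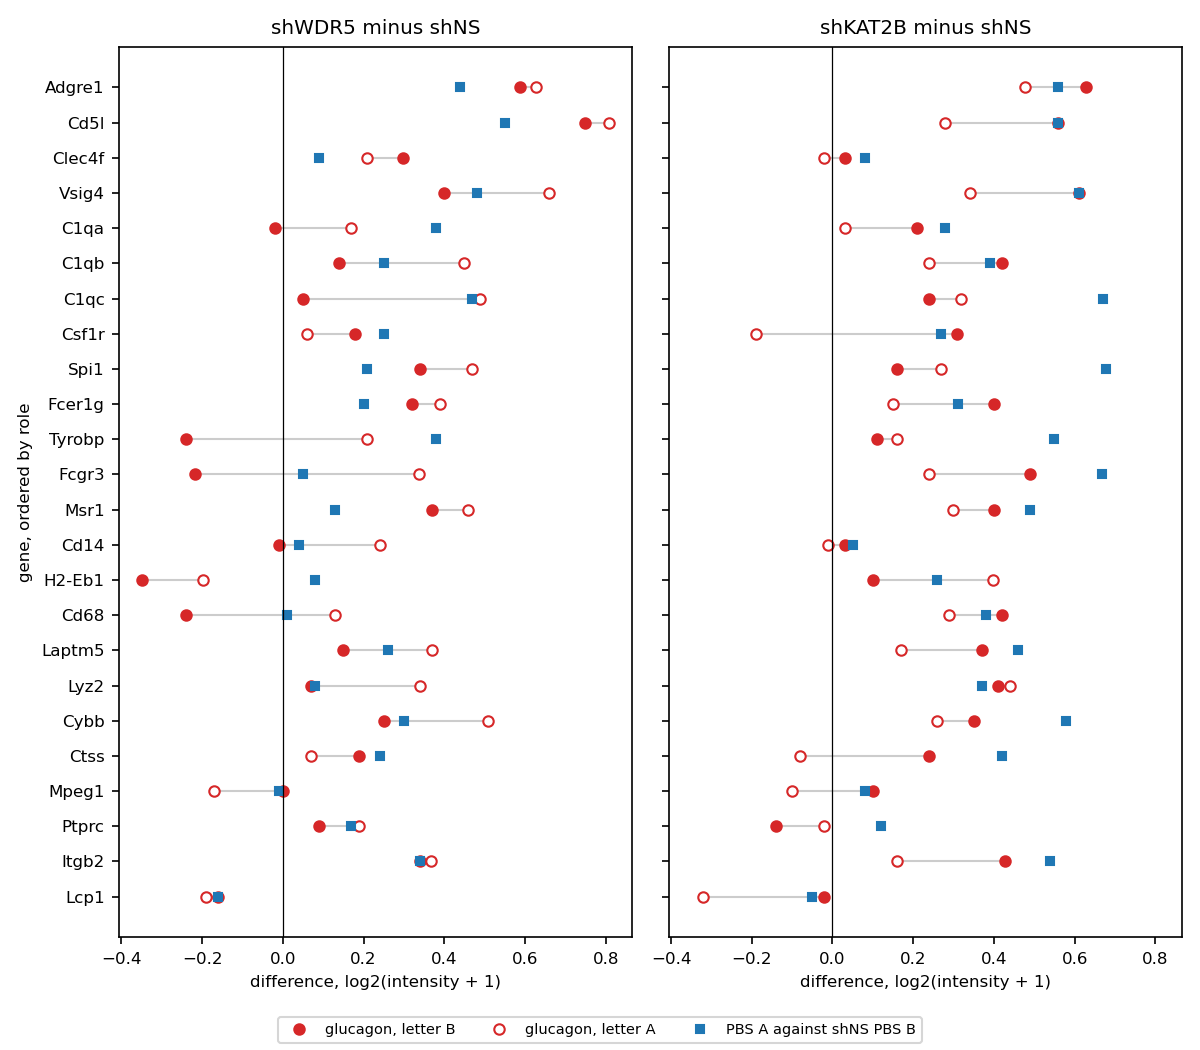
Difference from shNS on the log2 scale (horizontal axes) for 24 tested markers (rows, ordered by role) in shWDR5 (left) and shKAT2B (right). Filled and open circles compare glucagon libraries of letter B and of letter A, and squares compare the lone PBS library with shNS PBS B. Adgre1, Cd5l and Vsig4 are right of 0 at every symbol in both panels, and Lcp1 is left of it.

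The depletions were then compared directly. Without a block, 1 of 24 markers, H2-Eb1, was called higher in shKAT2B than in shWDR5 and 0 lower, whereas 11.2% of tested genes were called higher and 11.5% lower. H2-Eb1 was at 7.69 in shKAT2B glucagon B, 7.78 in shKAT2B glucagon A and 7.75 in shKAT2B PBS A, against 7.24 in shWDR5 glucagon B, 7.18 in shWDR5 glucagon A and 7.57 in shWDR5 PBS A. The values did not overlap, and the difference was 0.41 (SE 0.10, adjusted p = 0.0195). The call was lost when any 1 of the shWDR5 glucagon libraries or of the 3 shKAT2B libraries was left out (adjusted p of 0.0511 to 0.0669). It was kept with the replicate block (adjusted p = 0.0102), the set as a term (0.00208) and in the 8 libraries with a partner (0.52 higher, adjusted p = 0.00168).

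Once the letter or set was modelled, other markers were called between the depletions as well, at a smaller share than among all tested genes. With the set as a term, Cd68, Fcgr3, H2-Eb1 and Lyz2 were called higher in shKAT2B and Cd5l lower, where 25.9% of tested genes were called higher and 24.6% lower. In the 8 libraries with a partner, Cd68, H2-Eb1 and Lyz2 were higher and Cd5l lower, against 20.6% and 18.7% of tested genes, and with the replicate block Cd68 and H2-Eb1 were higher, against 18.1%. Cd68 differed by 0.41 (SE 0.10, adjusted p = 0.0074) and Cd5l by -0.36 (SE 0.10, adjusted p = 0.0149) in the 8 libraries. For Adgre1 and Vsig4 the direct difference was 0.004 (SE 0.08, adjusted p = 0.974) and 0.01 (SE 0.08, adjusted p = 0.952) with the set as a term.

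Glucagon for 90 min left the markers without a call. Limma called 0 of 24 higher or lower in glucagon than in PBS without a block, and 0 had an unadjusted p under 0.05, whereas 0.679% of tested genes were called higher and 0.244% lower. The median over the markers was -0.12 without a block, -0.26 with the replicate block, 0.04 with the set as a term and 0.02 within shNS in the 8 libraries with a partner. No marker was called with the block, the set or the 8 libraries either, against 2.53%, 3.35% and 1.95% of tested genes. Without a block and with 1 library left out, the median ran from -0.24 (without shNS glucagon B) to -0.04 (without shKAT2B glucagon A). It was -0.21 without shNS PBS A, -0.18 without shKAT2B glucagon B, -0.06 without shNS glucagon A and -0.07 without shKAT2B PBS A. The replicate block, which places both lone PBS libraries with the A libraries, gave 14 of 24 markers an unadjusted p under 0.05. The set as a term gave 1 and the 8 libraries 3. The share of all tested genes at that unadjusted level was not counted. Within shNS, where both treatments hold both letters, glucagon was above PBS in both letters for 5 markers (Csf1r, Tyrobp, Ptprc, Ctss and Cd14), against 22.3% of tested genes, and below in both for 1, Fcer1g, against 25.8%. Fcer1g was at 10.37 in shNS glucagon B and 9.09 in shNS glucagon A, against 10.39 in shNS PBS B and 9.14 in shNS PBS A. Adgre1 was at 8.34 in shNS glucagon B and 7.02 in shNS glucagon A, against 8.24 in shNS PBS B and 7.16 in shNS PBS A.

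Whether the glucagon effect differed between the hairpins rests on the lone PBS libraries. Without a block, 0 of 24 markers were called for shWDR5 against shNS and 0 for shKAT2B against shNS, with 0 at an unadjusted p under 0.05 in each and 0.0% called among all tested genes. The median interaction was -0.25 for shWDR5 and -0.41 for shKAT2B. With 1 library left out, it ran from -0.52 (without shNS glucagon A) to 0.13 (without shNS glucagon B) for shWDR5 and from -0.79 (without shKAT2B glucagon B) to 0.03 (without shKAT2B glucagon A) for shKAT2B, so its sign turned in both. With the replicate block, which places both lone PBS libraries with the A libraries, 8 markers were called lower for shWDR5 and 15 for shKAT2B, against 2.13% and 4.15% of tested genes. With the set as a term, 0 were called in either, against 0 of the tested genes for shWDR5 and 0.0174% for shKAT2B, with 1 and 0 at an unadjusted p under 0.05, and the medians were 0.09 and -0.07.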

How the data were processed

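Array intensities of 10 libraries on a linear scale were used as the authors deposited them; the tool was Affymetrix Expression Console 1.1.1, per the submitters' processing notes. Neither normalization nor genome build is given in the sources used here. Of 26913 features, 17873 carried 1 symbol, 1128 several and 7912 none; 17815 matched a RefSeq gene (GRCm38.p6), and 0 symbols were updated. Each of 16401 genes was taken from its feature with the highest mean, and library medians were 282.1 to 298.2. Values were tested as log2(intensity + 1) after the lowest 30% of genes by mean were removed, with limma 3.58.1 (R 4.3.3; lmFit and eBayes with trend), Benjamini-Hochberg adjusted over 11481 genes and called under 0.05. Fits were tested on simulated data. Treatment and hairpin were additive terms over 10 libraries, the letters were compared in 8, and interactions used 6 groups.

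The letters pair those 8 libraries: B minus A differences correlated between groups across genes at 0.721 to 0.844 in all 6 pairs of groups. Other settings were quantile normalization, median centring, no filter, a pseudocount of 16, no trend and means over a gene's features. Further ones were a replicate block, the library set and leaving out each library. The library set was drawn from residuals of these data, and the 8-library fit and its block were chosen after seeing the data.

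All 36 markers are named by role, with values in every library for up to 24 that a fixed list holds or that were called without a block, and up to 4 genes of each other list by smallest p. The members and lists, which include T, B and NK cell, neutrophil, endothelial, stellate, cholangiocyte and hepatocyte markers, were chosen with earlier results of these data known.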

Additional observations from a re-analysis of the deposited data

Results flagged for a closer look

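H2-Eb1, the class II beta chain, was flagged because its differences from shNS in the depletions were unequal in a test of the difference itself. It was the 1 call among 24 tested markers, while 11.2% of tested genes were called higher and 11.5% lower. Its levels of 7.18 to 7.78 lay near the lowest mean that passed the filter, 7.13. The call was lost when any 1 of the shWDR5 glucagon or shKAT2B libraries was left out. The direct comparison of shKAT2B with shWDR5 gave 0.4077 on the log2 scale (SE 0.10, limma adjusted p = 0.0195), with all 3 shKAT2B libraries above all 3 shWDR5 libraries. Its cause was not tested.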

How the results depend on the processing

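Direction and side of the threshold held for all 23 called markers of the letter comparison under quantile normalization, median centring, no filter, a pseudocount of 16, no trend and the mean of features, with medians between 0.49 and 0.60, and for 22 or 23 of them with a group left out; Fcgr3 was the exception. The depletion counts depended on how the letters entered, and those of the 8 libraries covered glucagon alone. Markers called higher in shWDR5 than in shNS numbered 0 without a block, 13 with the replicate block, 10 with the library set as a term (1 lower) and 7 in the 8 libraries with a partner. Against shNS, shKAT2B gave 0, 14, 16 (1 lower) and 9, and 0 to 6 with a library left out. Against shWDR5, shKAT2B gave 1, 2, 4 (1 lower) and 3 (1 lower), and 0 to 1 with a library left out. The replicate block gave 8 lower interactions for shWDR5 and 15 for shKAT2B, against 0 without it; with a library left out, the median interaction ran from -0.52 to 0.13 for shWDR5 and from -0.79 to 0.027 for shKAT2B. No interaction could be fitted without the lone PBS library of its arm. The causes of these shifts were not tested.

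For shWDR5 against shNS the sign turned for Cd68 (-0.053) and Mpeg1 (-0.058) with the set as a term, for Cd68 (-0.055), Tyrobp (-0.015) and Mpeg1 (-0.085) in the 8 libraries, and with a library left out Cd68 ran from -0.052 to 0.23 and Mpeg1 from -0.065 to 0.27. For shKAT2B against shNS it turned for Clec4f (-0.0040) with the set as a term and Ptprc (-0.080) in the 8 libraries. With a library left out, Clec4f ran from -0.0099 to 0.18, Ptprc from -0.021 to 0.28 and Lcp1 from -0.20 to 0.060, and Cd5l in shKAT2B against shWDR5 from -0.48 to 0.12. No marker whose sign turned was called under the setting that turned it. Of 33 measured markers, 9 lay below the filter, where signal over background limits any call.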
